A study of Rattus norvegicus with 64 samples.

Results

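The RT1 genes are the rat's major histocompatibility complex (MHC), and the 36 described here are all gene symbols that begin with RT1- and had 10 or more counts summed over the 64 lung libraries. They were taken from 39 such symbols among 30045 in the tables; the other 3, RT1-M1-5, RT1-M10-1 and RT1-M4, had fewer than 10 counts. By their names 26 are class I genes and 10 are class II genes; RefSeq lists RT1-CE6 and RT1-T24-2 as long non-coding RNAs and the other 34 as protein-coding. RNA was sequenced from a piece of lung of male Sprague-Dawley rats, an outbred strain, so that each animal can carry its own MHC alleles. The dust rats breathed fracking sand dust, the dust of the sand that is pumped into wells during hydraulic fracturing, at 10 or 30 mg/m3 in a whole-body chamber, and the air rats breathed filtered air. Exposure lasted 6 hours a day for 4 days, and lungs were taken 1, 7 or 27 days afterwards. The 2 doses were given in separate studies, each with air rats of its own. The 10 mg/m3 study held 5 dust and 5 air rats of day 1, likewise 5 and 5 of day 7, then 4 and 4 of day 27. The 30 mg/m3 study held 6 rats in each of its 6 groups. All groups share the strain, the sex and the housing. The age of the rats is not given in the sources used here, and each library is taken as 1 rat from the number in its title.

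Class I molecules sit on nearly all nucleated cells, are held together by beta-2-microglobulin (B2m) and show peptides from inside the cell to CD8 T cells. The classical ones do this for most peptides, and the non-classical ones often serve natural killer cells or special peptides. Class II molecules are pairs of an alpha and a beta chain on macrophages, dendritic cells, B cells and, in lung, also on alveolar type 2 cells, and show peptides from material taken up to CD4 T cells. The invariant chain Cd74 guards a new class II molecule, the DM pair loads its peptide and the DO pair restrains DM, while the coactivators Ciita and Nlrc5 switch on class II and class I genes. In bulk lung RNA, fewer cells of a type and less RNA per cell cannot be told apart.

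Levels are given as counts per 1000000 counts in genes (CPM), scaled by TMM factors, which correct library sizes for differences in composition. They are not divided by transcript length, so they are compared between rats and groups for 1 gene and not between genes. Library totals ran from 3420235 to 12359518 counts, and RT1 genes took 0.106% to 0.196% of them, with a median of 0.150%. In the shallowest library, dust rat 27 of the 10 mg/m3 study, 3 counts were worth 0.909 CPM, and in the deepest 0.248 CPM. Air rats 51 and 53, both of day 1 in the 30 mg/m3 study, stood apart with 21889 and 22077 genes with at least 1 count, against 17873 to 19731 in the other 62 libraries. The 8 alveolar type 2 cell markers, among them the surfactant genes, were all present and summed to at least 15806 CPM in every library. Sequences shared among RT1 genes, and RefSeq gene spans that overlap one another among the CE and T24 genes, make the split of reads between neighbours uncertain, and the tables were counted against a single reference genome.

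All 36 genes were found on rat chromosome 20 in the RefSeq table of the GRCr8 assembly, and 32 have a promoter there, taken as the 250 bases before to 50 after the gene's start. The CCAAT box, the letters bound by nuclear factor Y that form part of the class II control region, was searched as CCAAT on both strands. It was present in 9 of 9 class II and 14 of 23 class I promoters, together 71.9%, against 37.5% of all 33469 promoters in the table. The 13 class II matches lay between position -172 and -34 from the start. The interferon response core, searched on both strands as GAAA, any 2 bases and GAAA, was present in RT1-N3, RT1-S2 and RT1-S3, or 9.38% of RT1 promoters, against 3.92% of all. TGACG was in 18.8% and TATAAA in 18.8% of RT1 promoters, against 21.2% and 14.2% of all promoters. A match is a description of the letters and not a site of binding. The promoters of the 4 chains of the classical class II molecules are shown because their levels were related between rats, with the same or the opposite sign. They read 5′ to 3′ on the strand of the gene, with CCAAT or its reverse complement in capitals (RefSeq, GRCr8).
RT1-Da, chr20:4515165-4515464, plus strand: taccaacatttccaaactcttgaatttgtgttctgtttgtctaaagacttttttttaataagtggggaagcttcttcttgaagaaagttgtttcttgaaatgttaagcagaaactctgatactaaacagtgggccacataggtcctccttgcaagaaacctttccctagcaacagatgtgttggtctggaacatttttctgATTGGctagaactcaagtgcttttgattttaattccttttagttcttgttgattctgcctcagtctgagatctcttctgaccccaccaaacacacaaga
RT1-Db1, chr20:4560113-4560412, minus strand: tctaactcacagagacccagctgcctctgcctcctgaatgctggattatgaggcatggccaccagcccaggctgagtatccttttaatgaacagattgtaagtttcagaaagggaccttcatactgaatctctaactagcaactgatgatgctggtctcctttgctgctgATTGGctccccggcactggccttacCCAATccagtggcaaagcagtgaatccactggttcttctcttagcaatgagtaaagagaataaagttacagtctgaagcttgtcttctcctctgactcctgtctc
RT1-Ba, chr20:4576807-4577106, plus strand: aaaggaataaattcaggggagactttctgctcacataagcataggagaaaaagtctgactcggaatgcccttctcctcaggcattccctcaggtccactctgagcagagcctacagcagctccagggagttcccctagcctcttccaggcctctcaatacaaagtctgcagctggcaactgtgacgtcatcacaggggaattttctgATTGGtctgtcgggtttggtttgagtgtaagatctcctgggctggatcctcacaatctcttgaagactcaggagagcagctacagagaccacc
RT1-Bb, chr20:4604069-4604368, minus strand: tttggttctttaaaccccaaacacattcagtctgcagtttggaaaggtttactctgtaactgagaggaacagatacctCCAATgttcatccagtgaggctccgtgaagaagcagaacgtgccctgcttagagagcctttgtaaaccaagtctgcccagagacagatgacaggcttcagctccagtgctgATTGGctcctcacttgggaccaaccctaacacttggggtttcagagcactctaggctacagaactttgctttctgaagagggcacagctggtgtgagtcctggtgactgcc

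The class II genes were present in every group, and the spread between rats was larger for the B and DM genes than for RT1-Da and the DO genes. RT1-Da encodes the alpha chain of the D molecule, the counterpart of human HLA-DR, and ran from 277 to 543 CPM over the 64 rats, with group means between 374 and 487 CPM. RT1-Db1, the beta chain of the same molecule, ran from 23.7 to 121 CPM, a 5.09-fold range, against 1.96-fold for RT1-Da. RT1-Ba and RT1-Bb, the alpha and beta chains of the B molecule, the counterpart of human HLA-DQ, ran from 42.1 to 143 CPM and from 36.4 to 238 CPM. The lowest RT1-Bb value belonged to air rat 17 of day 1 in the 10 mg/m3 study, and the next lowest of the 64 rats had 75.4 CPM. RT1-DMa and RT1-DMb, the chains of the peptide loader, ran from 1.04 to 6.43 CPM and from 1.8 to 23.5 CPM, the second a 13.1-fold range. RT1-DOa and RT1-DOb, the chains of the DM inhibitor, stayed between 3.30 and 9.61 CPM and between 7.08 and 14.7 CPM. A further D beta chain gene, RT1-Db2, ran from 0.391 to 2.51 CPM, and RT1-Ha, an alpha chain gene of the H region, the counterpart of human HLA-DP, from 0.101 to 1.04 CPM. RT1-Ha was at or under 3 counts in 29 rats and was too low to be tested.

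**Figure D1:**
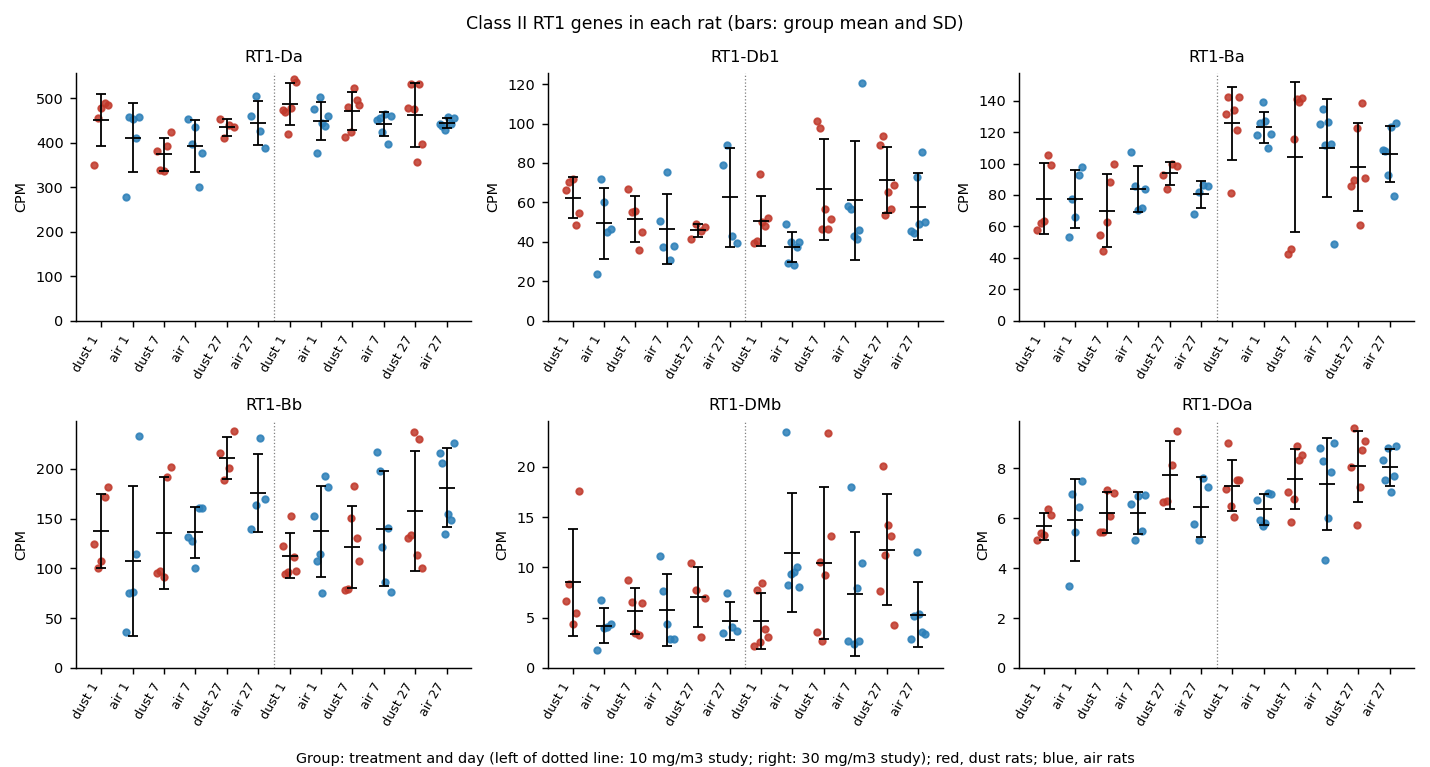
Level (CPM, linear axis from 0) of 6 class II genes in each rat, in 12 groups of treatment and day; red points are dust rats, blue points air rats, and black bars the group mean and SD. RT1-Da stays between 277 and 543 CPM, while single rats stand far from their group in RT1-DMb (up to 23.5 CPM) and RT1-Db1 (up to 121 CPM).

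Among class I genes, the classical RT1-A1 ran from 23.7 to 83.8 CPM and RT1-A2 from 39.4 to 173 CPM. The group mean of RT1-A2 was highest in dust rats of day 1 in the 10 mg/m3 study, at 127 ± 46.1 CPM (SD, n = 5). It was lowest in air rats of day 1 in the 30 mg/m3 study, at 52.3 ± 4.11 CPM (SD, n = 6). Of the CE genes, which lie together between the T24 genes and the class II genes in GRCr8, RT1-CE5 ran from 12.9 to 181 CPM and RT1-CE7 from 30.0 to 77.2 CPM. RT1-CE1, RT1-CE4 and RT1-CE10 ran from 6.84 to 46.9, 3.48 to 34.1 and 6.80 to 41.2 CPM. The non-classical RT1-S3 ran from 141 to 326 CPM, RT1-N3 from 22.4 to 49.7 CPM and RT1-T24-3 from 12.2 to 178 CPM. RT1-M3-1, named like mouse H2-M3, which presents formylated bacterial peptides, had the narrowest range of the genes that were tested, 28.9 to 51.8 CPM or 1.79-fold. RT1-M2 and RT1-T24-4 ran from 1.13 to 4.82 and from 0.537 to 12.8 CPM. The 8 class I genes RT1-M1-2, RT1-M1-4, RT1-M5, RT1-M6-1, RT1-M6-2, RT1-O1, RT1-T18 and RT1-T24-2 were near the detection limit, with no library at 30 counts. The other 5 class I genes are the on-off genes described further on.

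**Figure D2:**
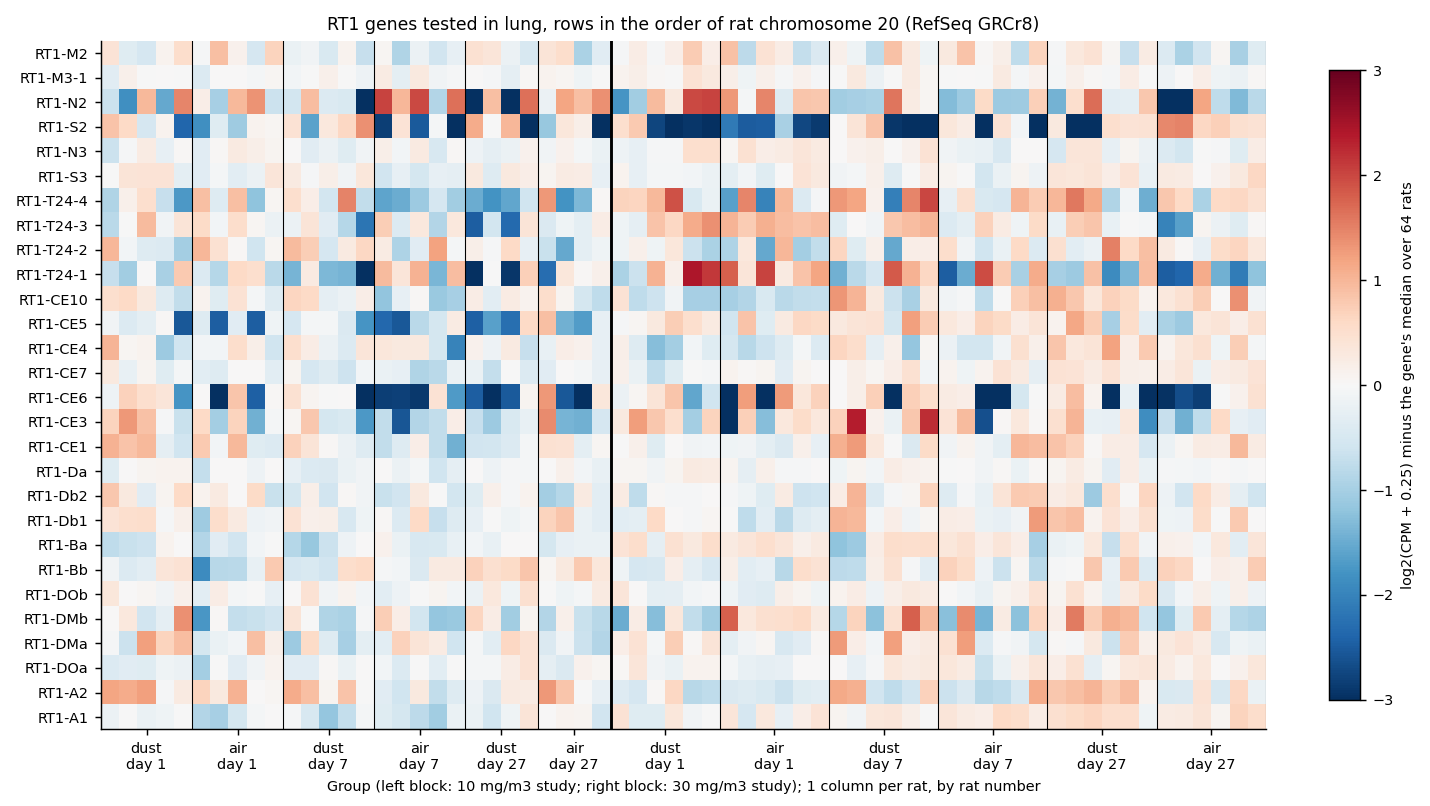
Level of the 28 RT1 genes that were tested in at least 1 study (rows, in the chromosome order of RefSeq GRCr8) in each of 64 rats (columns, by group, dust left of air at each day). Colour is log2(CPM + 0.25) minus the gene's median over the 64 rats, cut at 3 in either direction; RT1-CE6 and RT1-S2 hold dark blue cells of rats at or near 0 counts in both dust and air groups.

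The first comparison is whether dust changed RT1 levels on each day. By edgeR's quasi-likelihood test with Benjamini-Hochberg adjustment over all genes, 0 RT1 genes passed 0.05 in each of the 6 daily comparisons and in the mean of the 3 days of each study. The filter on low counts left 28 RT1 genes to test at 10 mg/m3 and 27 at 30 mg/m3. Of these, 1, 5 and 1 reached an unadjusted p under 0.05 at days 1, 7 and 27 of the 10 mg/m3 study, and 1, 2 and 5 did so in the 30 mg/m3 study. The same test called 0.128%, 0% and 0% of 15668 genes on days 1, 7 and 27 of the 10 mg/m3 study and 0%, 0.0643% and 0% of 15551 genes on days 1, 7 and 27 of the 30 mg/m3 study. Over the mean of 3 days it called 0.0319% of genes at 10 mg/m3 and 1.2% at 30 mg/m3, while 3 and 4 RT1 genes reached an unadjusted p under 0.05. With DESeq2 and with limma voom the test called 0 RT1 genes too in each of these 8 comparisons. The median log2 change (dust over air) over RT1 genes ran from -0.03 to 0.20 in the 6 daily comparisons, while that of all genes ran from -0.01 to 0.02. A p that misses the threshold does not show that levels were alike; standard errors stand beside the log2 changes.

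The class II genes with the smallest p did not pass the test. In the 10 mg/m3 study at day 1, RT1-DMb had 4.40, 5.49, 6.66, 8.36 and 17.6 CPM in dust rats, against 1.8, 3.95, 4.10, 4.36 and 6.74 CPM in air rats. The groups overlapped, with 1 air rat as high as some dust rats, and the log2 change was 1.01 ± 0.42 (SE, adjusted p = 0.192). At day 1 of the 30 mg/m3 study the sign was the other way. RT1-DMb had 2.18 to 8.49 (median 3.48) CPM in dust rats, against 8.10 to 23.5 (median 9.46) CPM in air rats, a log2 change of -1.31 ± 0.53 (adjusted p = 0.265). At day 27 of that study it had 4.27 to 20.1 (median 12.2) CPM in dust rats, against 2.83 to 11.6 (median 4.33) CPM in air rats, a log2 change of 1.18 ± 0.51 (adjusted p = 0.581). All 3 pairs of groups overlapped, and air rat 49 alone stood above 20 CPM among the air rats of day 1. Its partner RT1-DMa averaged 3.17 ± 0.704 CPM in dust rats and 2.2 ± 0.372 CPM in air rats at day 1 of the 30 mg/m3 study (SD, n = 6 each; adjusted p = 0.374). At day 27 of the 10 mg/m3 study it averaged 2.95 ± 0.926 CPM in dust rats and 1.71 ± 0.457 CPM in air rats (SD, n = 4 each; adjusted p = 1.000). RT1-Db1 averaged 50.7 ± 12.8 CPM in dust rats and 37.3 ± 7.68 CPM in air rats at day 1 of the 30 mg/m3 study (SD, n = 6 each; adjusted p = 0.376). At day 27 of that study RT1-DOb averaged 11.4 ± 2.40 CPM in dust rats and 9.28 ± 1.49 CPM in air rats (adjusted p = 0.592).

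Among class I genes, RT1-S3 had the smallest p at day 7 of the 10 mg/m3 study, with 197, 206, 237, 253 and 268 CPM in dust rats, against 141, 147, 175, 178 and 178 CPM in air rats. Every dust rat lay above every air rat, but the log2 change of 0.50 ± 0.15 (SE) had an adjusted p of 0.996 over 15668 genes. RT1-A2 on the same day had 69.8, 74.6, 127, 132 and 153 CPM in dust rats, against 41.9, 46.6, 53.7, 55.4 and 86.8 CPM in air rats, a log2 change of 0.97 ± 0.32 (adjusted p = 0.996). The higher dust rats stood above the air rats and the 2 lowest stood within them. RT1-CE10 on that day averaged 18.6 ± 5.43 CPM in dust rats and 10.1 ± 4.17 CPM in air rats (SD, n = 5 each; adjusted p = 0.996). At day 27 of the 30 mg/m3 study RT1-A2 had 76.2 to 143 (median 127) CPM in dust rats, against 50.7 to 109 (median 56.8) CPM in air rats, overlapping groups with a log2 change of 0.80 ± 0.34 (adjusted p = 0.570). RT1-CE3 had 1.72 to 11.2 (median 3.55) CPM in dust rats, against 0.113 to 4.09 (median 2.32) CPM in air rats, at day 7 of that study, a log2 change of 1.22 ± 0.54 (adjusted p = 0.959). RT1-N3 had 35.1 to 47.6 (median 38.1) CPM in dust rats, against 25.1 to 35.1 (median 31.4) CPM in air rats, on the same day, a log2 change of 0.31 ± 0.14 (adjusted p = 0.959). These groups did not overlap, though the lowest dust rat and the highest air rat were alike to 3 digits. On that day the 12 cardiac muscle markers, which would come from heart tissue, summed to 87.4 to 249 CPM in dust rats, against 377 to 1211 CPM in air rats. On that day 0 RT1 genes were called both without and with the mean level of these markers as a covariate, so the count cannot show their part. The part of heart tissue in the values of RT1-N3 and RT1-CE3 was not tested. RT1-T24-4 had 0.692, 0.855, 0.917 and 1.93 CPM in dust rats, against 0.703, 1.04, 3.11 and 7.79 CPM in air rats, at day 27 of the 10 mg/m3 study, a log2 change of -1.52 ± 0.68 (adjusted p = 1.000).

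The remaining genes with the 3 smallest p in a comparison did not pass either. RT1-S3 averaged 245 ± 50.5 CPM in dust rats and 199.9 ± 43.3 CPM in air rats on day 1 of the 10 mg/m3 study (SD, n = 5 each; adjusted p = 0.294). On that day RT1-A1 averaged 49.3 ± 3.15 CPM in dust rats and 39.1 ± 12.4 CPM in air rats (adjusted p = 0.416). At day 7 of the 30 mg/m3 study RT1-A1 averaged 58.8 ± 7.69 CPM in dust rats and 68.5 ± 8.39 CPM in air rats (adjusted p = 0.959). RT1-T24-2, near the detection limit, averaged 0.563 ± 0.213 CPM in dust rats and 0.243 ± 0.183 CPM in air rats at day 27 of the 10 mg/m3 study (adjusted p = 1.000). Averaged over the days, the smallest adjusted p at 10 mg/m3 was 0.400 for RT1-S3, with a log2 change of 0.28 ± 0.09 (SE), followed by RT1-CE10 (0.39) and RT1-DMb (0.53). At 30 mg/m3 it was 0.168 for RT1-A2, with a log2 change of 0.52 ± 0.20, followed by RT1-CE3 (0.82) and RT1-DMa (0.34). A test of whether the dust effect depended on the day called 0 RT1 genes and 0% of all genes in both studies. In it 2 RT1 genes of the 10 mg/m3 study and 1 of the 30 mg/m3 study reached an unadjusted p under 0.05, with RT1-T24-4 lowest at 0.00364 among the 10 mg/m3 rats and RT1-DMb at 0.00596 in the 30 mg/m3 study. The dust effect at 30 mg/m3 minus that at 10 mg/m3 was not past the threshold for any RT1 gene (0 of 28 tested, 4 at an unadjusted p under 0.05), while the test called 2.09% of 16190 genes. RT1-S3 came closest, at -0.28 ± 0.12 (adjusted p = 0.148), then RT1-N2 at 1.44 ± 0.66 and RT1-T24-3 at 0.67 ± 0.33.

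Genes that work with RT1 molecules were not called in dust against air either. In each study and on each day, 0 of 15 class I antigen processing genes and 0 of 13 class II presentation genes passed. Averaged over the days, the log2 change (dust over air) was 0.07 at 10 mg/m3 and 0.02 at 30 mg/m3 for Cd74, 0.19 and -0.09 for Ciita, and -0.07 and 0.02 for B2m. For Nlrc5 it was 0.05 and 0.09, and for Tap1 and Tap2, the peptide pump, 0.17 and 0.47 at 10 mg/m3 and -0.06 and -0.08 at 30 mg/m3. For Psmb8, an immunoproteasome subunit, it was -0.06 and 0.25. Group means of Cd74 lay between 1216 and 1574 CPM and those of B2m between 1997 and 2985 CPM.

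The second comparison is day 27 against day 1 within a treatment, where the lungs come from different rats. Time since exposure, age and the MHC alleles that the rats of each day carried cannot be told apart in it. In dust rats of the 30 mg/m3 study 7 of 27 RT1 genes were higher at day 27 and 0 were lower by edgeR's test. This comparison called 34.3% of all genes, 17% higher and 17.3% lower. The 7 were the class I genes RT1-A1, RT1-A2, RT1-CE4, RT1-CE7, RT1-CE10 and RT1-S3 and the class II gene RT1-DMb. The median log2 change was 0.15 over the 27 and -0.01 over all genes. RT1-CE4 had 16.9 to 34.1 (median 22.5) CPM at day 27, against 5.89 to 16.6 (median 11.2) CPM at day 1. The groups did not overlap, and the log2 change was 1.11 ± 0.25 (SE, adjusted p = 0.00143). RT1-CE7 had 62.8 to 76.5 (median 70.9) CPM at day 27, against 33.3 to 63.2 (median 52.1) CPM at day 1, a log2 change of 0.49 ± 0.12 (adjusted p = 0.00259) with overlapping groups. RT1-CE10 had 16.9 to 33 (median 24.4) CPM at day 27, against 7.74 to 21.4 (median 9.60) CPM at day 1, a log2 change of 1.04 ± 0.33 (adjusted p = 0.0152). RT1-A2 had 76.2 to 143 (median 127) CPM at day 27, against 39.4 to 109 (median 51.8) CPM at day 1, a log2 change of 0.99 ± 0.34 (adjusted p = 0.0253). The groups of RT1-CE10 and RT1-A2 also overlapped. RT1-A1 and RT1-S3 changed by 0.43 ± 0.14 (adjusted p = 0.0209) and 0.34 ± 0.12 (adjusted p = 0.0325) on the log2 scale, and RT1-DMb by 1.36 ± 0.53 (adjusted p = 0.0447).

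RT1-CE4, RT1-CE7 and RT1-CE10 were called with each library left out in turn and under each other setting tried, but the other 4 were not. Of 36 repeats with 1 rat left out, RT1-A1 and RT1-A2 lost their call in 3 each, RT1-S3 in 6 and RT1-DMb in 8. Without dust rat 58, 62 or 91 the count of RT1 genes fell to 4. The adjusted p became 0.0634 without rat 58 for RT1-A1, 0.0633 without rat 62 for RT1-A2, 0.0753 without rat 58 for RT1-S3 and 0.0996 without rat 90 for RT1-DMb. RT1-DMb also missed the threshold with no filter on low counts (adjusted p = 0.0615) and without air rats 51 and 53 (adjusted p = 0.0504), which entered the shared estimate of spread. Of the genes that work with RT1 molecules, 9 of 15 class I processing genes were called at day 27 against day 1 in these dust rats, 3 higher and 6 lower. Higher were Nlrc5 (0.50 on the log2 scale), Tap1 (0.31) and Tapbp (0.33), which holds class I molecules at the pump. Lower were B2m (-0.33), the chaperones Calr (-0.37) and Canx (-0.34), the proteasome activators Psme1 (-0.27) and Psme2 (-0.36) and the immunoproteasome subunit Psmb10 (-0.22). Of 13 class II presentation genes, 9 were called. Higher were 3, the coactivator Ciita (0.67) and the promoter-binding Nfya (0.33) and Rfx5 (0.16), and lower were 6, the protein-cutting lysosomal Ctsl (-0.63), Ctss (-0.42), Ctsb (-0.34) and Lgmn (-0.31), with Ifi30 (-0.36) and Nfyb (-0.21). Cd74 had a log2 change of -0.03 ± 0.07 (adjusted p = 0.817). Of 16 genes of the interferon gamma axis, which can switch on RT1 genes, Ifngr1 (0.36) and Irf8 (0.32) were higher and Gbp2 (-0.34) and Irf9 (-0.22) lower. Of the markers of cells that carry class II molecules, 0 of 9 B cell, 2 of 11 dendritic cell and 2 of 8 alveolar macrophage markers were called, with Zbtb46 (0.64) and Itgax (0.76) higher, Lamp3 (-0.46) and Car4 (-0.22) lower. Of 8 alveolar type 2 cell markers 4 were called, Abca3 (0.35) and Napsa (0.19) higher and Sftpc (-0.35) and Lamp3, which stands in both lists, lower. Of 8 monocyte and interstitial macrophage markers 1, Plac8 (-0.75), was called lower. The summed B cell markers ran from 119 to 209.9 CPM at day 27, against 116 to 229 CPM at day 1, and the dendritic cell markers from 523 to 713 CPM at day 27, against 635 to 881 CPM at day 1. The alveolar macrophage markers summed to 378 to 604 CPM at day 27, against 481 to 586 CPM at day 1. The alveolar type 2 markers summed to 18064 to 25242 CPM at day 27, against 20358 to 26779 CPM at day 1, and the monocyte and interstitial macrophage markers to 325 to 498 CPM at day 27, against 431 to 531 CPM at day 1. The 5 marker sums overlapped between the days, and their part in the RT1 values was not tested.

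In air rats of the 30 mg/m3 study, 5 of 27 RT1 genes, all class I, were called at day 27 against day 1, 3 higher and 2 lower. Here the test called 12.9% of all genes, 5.55% higher and 7.36% lower. RT1-T24-3 had 16.8 to 72.6 (median 57.2) CPM at day 27, against 117 to 144 (median 130.1) CPM at day 1, a log2 change of -1.41 ± 0.33 (SE, adjusted p = 0.00658), and the groups did not overlap. RT1-CE10 had 14.6 to 41.2 (median 20.6) CPM at day 27, against 7.79 to 11.4 (median 9.11) CPM at day 1, a log2 change of 1.32 ± 0.33 (adjusted p = 0.0113), again without overlap. RT1-S2 had 6.72 to 14.3 (median 8.0) CPM at day 27, against 0.460 to 2.39 (median 0.672) CPM at day 1, a log2 change of 3.44 ± 0.99 (adjusted p = 0.0215). Its groups did not overlap either, although RT1-S2 was on in some rats and off in others of 7 groups. These air rats of day 1 had only 4 to 14 counts of RT1-S2, where 3 or fewer are taken as off. The highest, 14 counts, was rat 53. In rats with RT1-S2 off, RT1-T24-3 lay above its median of 68.7 CPM, as described further on. Whether the changes of RT1-S2 and RT1-T24-3 are separate, or go with the alleles of the rats in each group, was not tested. RT1-N3 had 23.6 to 41.1 (median 30.4) CPM at day 27, against 36.3 to 48.1 (median 41.7) CPM at day 1 (log2 change -0.45 ± 0.14, adjusted p = 0.0351), with overlapping groups, and RT1-CE4 changed by 0.73 ± 0.25 on the log2 scale (adjusted p = 0.0475). RT1-T24-3 and RT1-CE10 were called with each library left out in turn and under each other setting tried. Of the 36 repeats with 1 rat left out, RT1-CE4 lost its call in 19, RT1-N3 in 7 and RT1-S2 in 1. RT1-S2 was not called without air rat 52 (adjusted p = 0.0522), and RT1-N3 and RT1-CE4 not without rats 51 and 53, which stand apart (adjusted p = 0.127 and 0.143). The count was 2 without air rat 52 and 3 without air rat 51, 53, 81, 82 or 85. RT1-CE4 passed in neither limma voom nor the fit with no filter on low counts (adjusted p = 0.0641 and 0.0628). Of the class I processing and class II presentation genes, 2 of 15 and 4 of 13 were called in these air rats, with Ciita (0.53 on the log2 scale) and Nfya (0.31) higher and Calr (-0.37), Canx (-0.24), Ctsl (-0.39) and Ifi30 (-0.25) lower. Summed dendritic cell markers, of which 3 of 11 were called lower, ran from 533 to 625.3 CPM at day 27, against 582 to 862 CPM at day 1. Of 8 monocyte and interstitial macrophage markers C1qa (-0.41) and C1qb (-0.46) were called lower, 5 of the 8 reached an unadjusted p under 0.05, and the median log2 change of the 8 was -0.40. Their sum was 418 to 501 CPM at day 27, against 455 to 586 CPM at day 1, and that of the alveolar type 2 markers, of which 1 of 8 (Lamp3, -0.39) was called lower, 19975 to 24507 CPM at day 27, against 21114 to 28104 CPM at day 1. The part of these cells in the RT1 values was not tested. The dust and air changes over time were not tested against each other except in the test for dependence on day, which called 0 RT1 genes.

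In the 10 mg/m3 study 0 of 28 RT1 genes were called at day 27 against day 1 in dust rats, where edgeR's test called 2.34% of all genes, and 0 in air rats, where it called 2.97%. An unadjusted p under 0.05 was reached by 3 RT1 genes in dust rats and 0 in air rats, and other tools (limma voom, DESeq2) called 0 RT1 genes as well. RT1-DOa had 6.65, 6.69, 8.12 and 9.51 CPM in dust rats at day 27, against 5.15, 5.32, 5.43, 6.15 and 6.38 CPM at day 1. These groups did not overlap, with a log2 change of 0.45 ± 0.18 (SE, adjusted p = 0.167). RT1-CE1 and RT1-A2 had log2 changes of -0.90 ± 0.36 (adjusted p = 0.176) and -0.81 ± 0.33 (adjusted p = 0.190) in dust rats, the opposite sign to RT1-A2 in the 30 mg/m3 study. In air rats RT1-Bb, RT1-T24-2 and RT1-DMa came closest, with log2 changes of 0.71 ± 0.35 (adjusted p = 0.270), -1.32 ± 0.65 (adjusted p = 0.272) and -0.70 ± 0.40 (adjusted p = 0.355). Without air rat 21 RT1-Bb passed, with an adjusted p of 0.00969.

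RT1 genes differed more between rats of 1 group than most genes did. The spread is given as edgeR's biological coefficient of variation (BCV), the SD between rats of a group relative to the mean after counting noise is taken out. The median BCV of the RT1 genes tested was 33.8% at 10 mg/m3 and 29.9% at 30 mg/m3, against 13.5% and 12.7% over all genes. Of 28 and 27 RT1 genes, 16 and 18 lay above the 90th percentile of all genes, 13 of 19 and 13 of 18 class I and 3 of 9 and 5 of 9 class II genes. RT1-M3-1 had the lowest BCV, 10.6% and 9.42%, and RT1-Da (13.1% and 10.3%), RT1-DOa (13.9% and 13.2%) and RT1-DOb (12.6% and 13.8%) also lay at the low end of the RT1 genes. RT1-CE6 had the highest, 127% and 127%, with RT1-N2 at 104% and 84.8%, RT1-S2 at 87.4% and 119% and RT1-T24-1 at 73.8% and 88.5%. Most genes that work with RT1 molecules did not share this spread. Of the class II presentation genes, 0 of 13 and 0 of 13 lay above the 90th percentile at 10 and at 30 mg/m3. Of the class I processing genes, 2 of 15 and 1 of 15 did. They were Tap2 (BCV 32.3%) and Psmb8 (31.7%) at 10 mg/m3 and Tap2 (35.2%) at 30 mg/m3. The comparison of spread is a description with no test, and by the SD of log2 CPM in place of the BCV 14 and 11 RT1 genes lay above the 90th percentile.

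**Figure D3:**
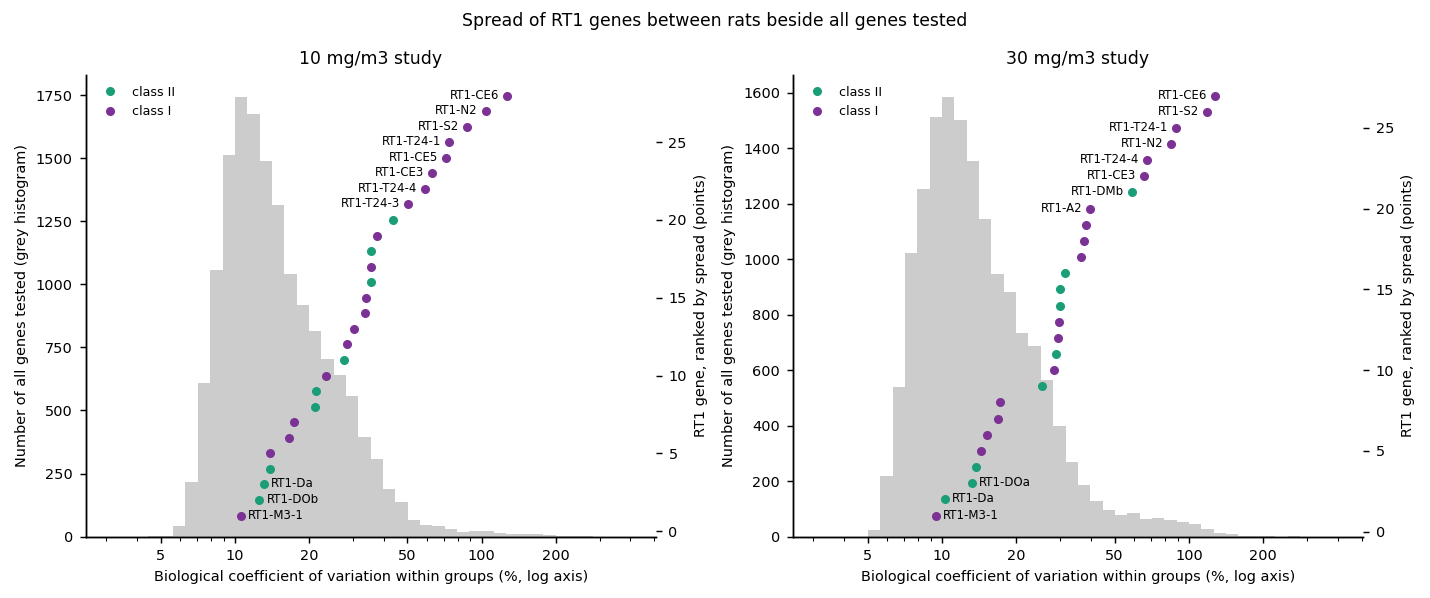
Biological coefficient of variation within groups (percent, log axis) of all genes tested (grey histogram, number of genes on the left axis) and of each RT1 gene (points, ranked on the right axis; purple, class I; green, class II) in the 10 and 30 mg/m3 studies. The RT1 points spread from near the peak of the histogram far into its right tail, from RT1-M3-1 at 10.6% and 9.42% to RT1-CE6 at 127% and 127%.

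Some class I genes were at or near 0 in some rats and well detected in others. An on-off gene is one with 3 or fewer counts in at least 3 libraries and 30 or more counts in at least 3 others. This held for 5 of 36 RT1 genes, or 13.9%, against 1.21% of 21893 genes with 10 or more summed counts. They are RT1-CE3 (off in 5 rats), RT1-CE6 (22), RT1-N2 (4), RT1-S2 (12) and RT1-T24-1 (3). All 5 are class I genes, and 0 of 10 class II genes meet the rule. Off rats were found in dust and air groups for 4 of them. There were 8 dust and 14 air rats for RT1-CE6, 8 and 4 for RT1-S2, 2 and 3 for RT1-CE3 and 3 and 1 for RT1-N2. RT1-T24-1 was off in 3 dust rats of the 10 mg/m3 study only. Counts just above the limit were also found in air rats and in the 30 mg/m3 study, with 4 in air rat 65 and 6 in air rats 1, 81 and 85 and dust rat 92. Off rats of RT1-CE6 came from 11 of the 12 groups. RT1-N2 left the widest gap: 5 rats had at most 0.910 CPM, the other 59 at least 4.24 CPM. In RT1-S2 the values ran on from 0 to 14.3 CPM with in-between rats (15 rats with 4 to 29 counts). In RT1-CE6 they ran from 0 to 6.21 CPM, with the widest gap between 0.645 and 1.48 CPM and 24 rats below it. The 26 rats with 4 to 29 counts of RT1-CE6 lay on both sides of that gap. For RT1-CE3 46 rats and for RT1-T24-1 29 rats had 4 to 29 counts. The widest gap lay among the high rats in both genes. It was between 5.79 and 10.2 CPM for RT1-CE3, with 62 rats below it. For RT1-T24-1 it was between 9.48 and 14.8 CPM, with 58 rats below it. Off here means low and not always at 0: RT1-N2 and RT1-T24-1 had 0 libraries at 0 counts, while 1 of the 5 off rats of RT1-CE3, 3 of the 12 of RT1-S2 and 11 of the 22 of RT1-CE6 were at 0. In a library at 0 counts a level of up to 3 counts, 0.248 to 0.909 CPM depending on the library, is allowed.

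**Figure D4:**
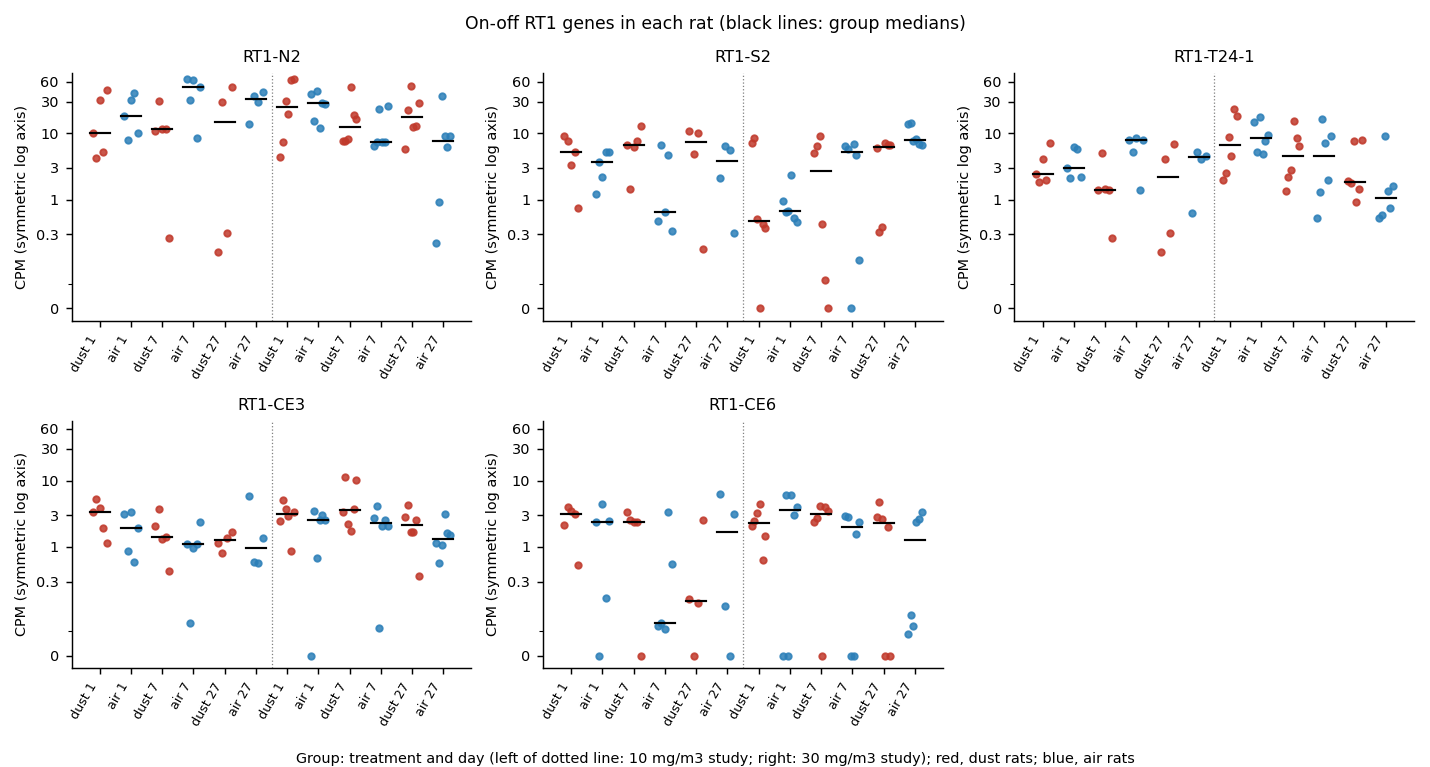
Level (CPM, symmetric log axis, linear below 0.3) of the 5 on-off class I genes in each rat by treatment, day and study; red points are dust rats, blue points air rats and black lines group medians. Rats near 0 stand beside rats at several CPM of the same group, as in RT1-CE6 with 8 dust and 14 air rats at 3 or fewer counts.

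The off rats of these genes coincided in part. All 5 rats with RT1-CE3 off were off for RT1-CE6 as well, against 1.72 shared rats if the shares of off rats are multiplied. RT1-N2 was off in dust rats 48, 13 and 15 of the 10 mg/m3 study and air rat 81 of the 30 mg/m3 study; all 4 were off for RT1-CE6 (1.38 by the product of shares), and rats 48, 13 and 15 were the 3 off for RT1-T24-1. In these 4 rats RT1-S2 was on, at 10.0 to 13.8 CPM, RT1-T24-3 was at 12.2 to 16.8 CPM and RT1-CE5 at 13.9 to 39.9 CPM. No rat was off for both RT1-N2 and RT1-S2, where the product of shares gives 0.750 rats, so the 0 shows little. In the 12 rats with RT1-S2 off, RT1-N2 was at 16.5 to 64.8 CPM and RT1-T24-3 at 80.5 to 178 CPM. In GRCr8 the genes stand in the order RT1-N2, RT1-S2, RT1-O1, RT1-N3, RT1-S3, RT1-T24-4, RT1-T24-3, RT1-T24-2 and RT1-T24-1. RefSeq lists the CE genes, whose spans overlap, in the order RT1-CE10, RT1-CE5, RT1-CE4, RT1-CE7, RT1-CE6, RT1-CE3 and RT1-CE1. By the place of their promoters the order is RT1-CE10, RT1-CE6, RT1-CE5, RT1-CE4, RT1-CE3 and RT1-CE1, and RT1-CE7 has no promoter there. These are counts of rats with no test, and the rats were not grouped by them. The promoters of RT1-N2 and RT1-S2, on-off genes that stand next to each other in GRCr8, are shown with matches of CCAAT or the interferon core in capitals. The interferon core was found in RT1-S2 and CCAAT in RT1-N2, and the 2 promoters share 50.9% of aligned bases.
RT1-N2, chr20:2646080-2646379, plus strand: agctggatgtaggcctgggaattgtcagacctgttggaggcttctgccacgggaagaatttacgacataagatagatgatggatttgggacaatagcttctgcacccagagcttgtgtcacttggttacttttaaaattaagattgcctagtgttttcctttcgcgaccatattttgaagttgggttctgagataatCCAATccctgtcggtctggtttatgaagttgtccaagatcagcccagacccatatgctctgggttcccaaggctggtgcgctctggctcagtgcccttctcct
RT1-S2, chr20:2654804-2655103, plus strand: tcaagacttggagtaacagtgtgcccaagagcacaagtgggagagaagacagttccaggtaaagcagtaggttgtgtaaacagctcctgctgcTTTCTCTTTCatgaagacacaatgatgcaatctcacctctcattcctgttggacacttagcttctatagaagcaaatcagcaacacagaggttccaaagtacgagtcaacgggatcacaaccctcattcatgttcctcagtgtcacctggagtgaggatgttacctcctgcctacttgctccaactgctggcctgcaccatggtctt

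Levels of RT1 genes were also related across rats within their groups. The relation was taken over 64 rats as deviations of log2 CPM from the group mean, with 100000 permutations within groups, and 1e-05 is the smallest p they can give. Of 231 pairs among 22 genes, those tested in both studies that were not on-off, 37 passed after adjustment over the 231, 26 positive and 11 negative. The pairs were listed after the data were seen. The 3 strongest ties were between class I genes. For RT1-CE1 and RT1-CE10 Pearson's r was 0.77 (permutation p = 1e-05, adjusted p = 0.000289) and Spearman's rho 0.75 (permutation p = 1e-05, adjusted p = 0.000385). There r was 0.79 at 10 mg/m3 and 0.77 at 30 mg/m3, and 0.73 without the 2 rats farthest from the median of the first gene. For RT1-A2 and RT1-CE10, Pearson's r was 0.76 (permutation p = 1e-05, adjusted p = 0.000289) and Spearman's rho 0.75 (permutation p = 1e-05, adjusted p = 0.000385). In this pair r was 0.79 at 10 mg/m3 and 0.74 at 30 mg/m3, and 0.73 without the 2 rats farthest from the median of the first gene. Their promoters, shown with CCAAT or its reverse complement in capitals, share 75.3% of aligned bases, against a median of 50.1% over 496 pairs of RT1 promoters, and both hold 2 CCAAT matches. RT1-CE1, with 0 CCAAT matches, shares 58.7% with RT1-CE10 and 54.4% with RT1-A2. RT1-A2 and RT1-CE5 share 80.5% and did not pass (r = 0.28, adjusted p = 0.129 by permutation). The relation of promoter identity to r over all pairs was not tested.
RT1-A2, chr20:4872621-4872920, plus strand: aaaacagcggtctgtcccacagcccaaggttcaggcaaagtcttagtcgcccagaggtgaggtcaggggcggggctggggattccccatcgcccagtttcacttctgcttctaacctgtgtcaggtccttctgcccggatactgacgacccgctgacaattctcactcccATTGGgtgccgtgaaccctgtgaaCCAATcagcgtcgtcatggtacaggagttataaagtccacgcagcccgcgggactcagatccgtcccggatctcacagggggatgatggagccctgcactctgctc
RT1-CE10, chr20:3384930-3385229, minus strand: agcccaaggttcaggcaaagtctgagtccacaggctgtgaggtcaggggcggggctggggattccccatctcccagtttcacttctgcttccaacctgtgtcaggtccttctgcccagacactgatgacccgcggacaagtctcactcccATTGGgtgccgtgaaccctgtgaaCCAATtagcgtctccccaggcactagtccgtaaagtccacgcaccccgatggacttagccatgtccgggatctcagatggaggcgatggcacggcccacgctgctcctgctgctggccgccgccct

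RT1-A2 and RT1-CE1 gave r = 0.72, RT1-A2 and the class II gene RT1-Db1 r = 0.63, and RT1-CE10 and RT1-CE4 r = 0.56; all 3 passed. The B chain genes went with each other, and RT1-Ba went against RT1-A2 and RT1-Db1. For RT1-Ba and RT1-Bb Pearson's r was 0.63 (permutation p = 1e-05, adjusted p = 0.000289) and Spearman's rho 0.66 (permutation p = 1e-05, adjusted p = 0.000385). Here r was 0.77 at 10 mg/m3 and 0.58 at 30 mg/m3, and 0.60 without the 2 rats farthest from the median of the first gene. For RT1-A2 and RT1-Ba, Pearson's r was -0.63 (permutation p = 0.000120, adjusted p = 0.00198) and Spearman's rho -0.55 (permutation p = 0.000120, adjusted p = 0.00198). Of that pair r was -0.60 at 10 mg/m3 and -0.65 at 30 mg/m3, and -0.53 without the 2 rats farthest from the median of the first gene. RT1-Ba and RT1-Db1 were also negatively related (r = -0.57); r was -0.21 at 10 mg/m3 and -0.78 at 30 mg/m3. Air rat 71 of day 7 in the 30 mg/m3 study shows the pattern at its extreme, with RT1-A2 at 153 CPM, RT1-Db1 at 121 CPM and RT1-Ba at 48.7 CPM. RT1-A2 did not fall into clearly separate groups of rats: its widest gap was between 95.1 and 109 CPM. The cause of these ties was not tested.

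**Figure D5:**
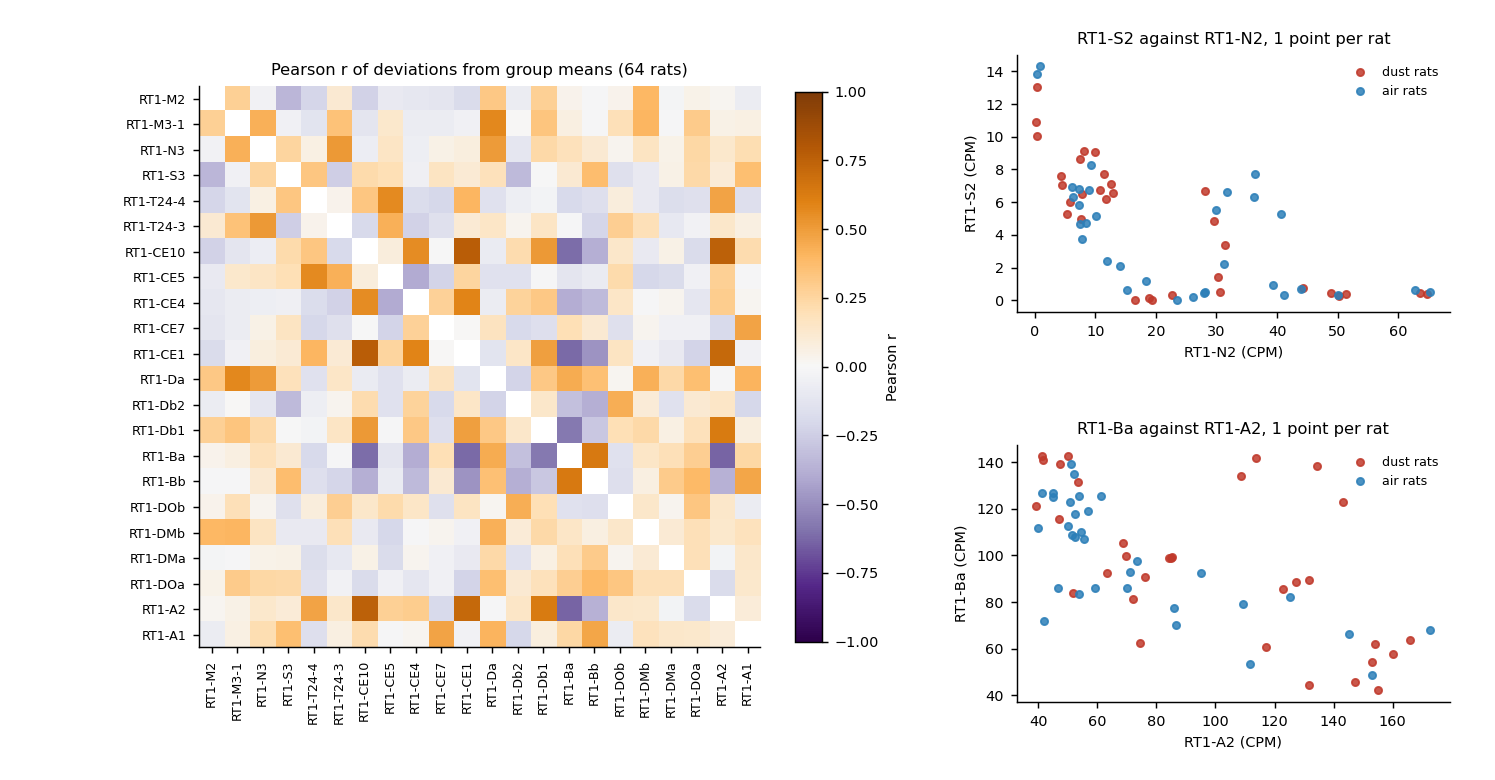
Left, Pearson's r of deviations from group means for each pair of 22 RT1 genes over 64 rats (colour scale -1 to 1; rows and columns in chromosome order). Right, level (CPM) of RT1-S2 against RT1-N2 and of RT1-Ba against RT1-A2, with 1 point per rat (red, dust; blue, air); rats high in RT1-A2 tend to be low in RT1-Ba (r = -0.63 after group means are removed).

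The class II genes differed in how closely they followed the invariant chain and the coactivator. Of 44 pairs, each class II gene with Cd74 and Ciita and each class I gene with B2m and Nlrc5, 5 passed by Pearson's r after adjustment over the 44. For RT1-Da and Cd74, Pearson's r was 0.79 (permutation p = 1e-05, adjusted p = 0.000440) and Spearman's rho 0.75 (permutation p = 1e-05, adjusted p = 0.000440). For this tie r was 0.85 at 10 mg/m3 and 0.70 at 30 mg/m3, and 0.72 without the 2 rats farthest from the median of the first gene. RT1-Db1 also passed with Cd74 (r = 0.46), but r was 0.70 at 10 mg/m3 and 0.22 at 30 mg/m3, and 0.35 without the 2 rats farthest from the median of the first gene. For RT1-DMb and Cd74 (r = 0.40) r was 0.52 at 10 mg/m3 and 0.34 at 30 mg/m3, and 0.41 without the 2 rats farthest from the median of the first gene. The other class II genes in these pairs did not pass with Cd74. Their r was 0.36 for RT1-Bb, 0.31 for RT1-DMa and RT1-DOa, 0.27 for RT1-Ba, 0.07 for RT1-DOb and -0.24 for RT1-Db2. The values of r were not tested against one another. RT1-Da was negatively related to Ciita (r = -0.35, adjusted p = 0.0495; rho = -0.30, adjusted p = 0.0871 by permutation), so that only Pearson's r passed. The last pair was RT1-M2 with Nlrc5 (r = -0.41, adjusted p = 0.0302; rho = -0.35, adjusted p = 0.0616 by permutation). By Spearman's rho 2 further class I pairs passed, RT1-N3 with B2m (rho = 0.43, adjusted p = 0.0335; r = 0.37, adjusted p = 0.0827 by permutation) and RT1-N3 with Nlrc5 (rho = 0.39, adjusted p = 0.0344; r = 0.35, adjusted p = 0.0546 by permutation). With B2m the r of RT1-N3 was 0.72 at 10 mg/m3 and 0.11 at 30 mg/m3, and with Nlrc5 it was 0.06 at 10 mg/m3 and 0.58 at 30 mg/m3. RT1-A2 was related to neither B2m nor Nlrc5 past the threshold (r = -0.09 and -0.05).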

How the data were processed

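The deposited values are raw counts, in whole numbers, that the authors made for each gene and library, in a table for each study. HTSeq 0.6.1, SAMtools 1.8, HISAT2 2.1.0, Trimmomatic 0.35, bcl2fastq 2.19 and the build Rnor_6.0 were, per the submitters' processing notes, the tools and the build, and per the labels' protocols the libraries were rRNA-depleted and stranded.

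Each study was fitted apart in R 4.3.3 with edgeR 4.0.16 (TMM factors, filterByExpr with a minimum count of 10 and a minimum total of 15, 6 groups in 1 fit, robust quasi-likelihood F test, Benjamini-Hochberg adjustment over all genes at 0.05), and the difference between doses in 1 fit of 64 libraries. DESeq2 1.42.0 and limma 3.58.1 were alternatives. The fit was tested on simulated data in which all genes had the common BCV, 16.1% at 10 mg/m3 and 16.7% at 30 mg/m3. Most RT1 genes spread more than that, so the simulation does not show how well changes of RT1 genes are found. Printed CPM use TMM factors over all 64 libraries; correlations use log2 CPM with a prior count of 2. Whether libraries of a group are separate animals rests on the titles, and p-values measure the spread between libraries. Promoters come from RefSeq (GRCr8) and were aligned globally with Biopython 1.88. All class II genes are described; class I genes are named where called, on-off or among the 8 highest in mean CPM, and the 3 smallest p are given where no RT1 gene passed. Remaining class I genes are named with their ranges only, chosen after their values were seen. The RT1 genes and the gene lists were chosen with earlier results of these data known. The floors given for low counts cover counting error only, while the printed SD and SE include the spread between rats.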

Additional observations from a re-analysis of the deposited data

Results flagged for a closer look

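In each group of 4 to 6 rats a value was flagged where its gap to the nearest other rat was above Dixon's 95% critical value for the group's whole range. This was so for 28 of 336 groups of values over the 28 RT1 genes tested, or 8.33%, and chance flags about 1 in 20; the genes are not independent, since several flags fall on the same rat. No difference between the dust effects on different days or at different doses was past its threshold, so none is flagged.

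Several flags fell on air rats of the 30 mg/m3 study. Air rat 71 (day 7) was high in RT1-A2 at 153 CPM, against 39.8 to 52.2 CPM in the others, and in RT1-Db1 at 121 CPM, against 41.6 to 58.1 CPM in the others. It was low in RT1-Ba at 48.7 CPM, against 112 to 135 CPM in the others. Air rat 83 (day 27) was high in RT1-N2 at 36.4 CPM, against 0.266 to 9.21 CPM in the others, in RT1-T24-1 at 9.05 CPM, against 0.531 to 1.63 CPM in the others, and in RT1-DMb at 11.6 CPM, against 2.83 to 5.32 CPM in the others. It was low in RT1-T24-4 at 1.45 CPM, against 4.23 to 5.49 CPM in the others, and in RT1-CE7 at 49.3 CPM, against 65.6 to 75.1 CPM in the others. Air rat 85 (day 27) was high in RT1-CE1 at 37.7 CPM, against 16.8 to 22.8 CPM in the others. Air rat 49 (day 1) was high in RT1-DMb at 23.5 CPM, against 8.10 to 10.1 CPM in the others. Air rat 53 (day 1), 1 of the 2 libraries with the most genes detected, was low in RT1-CE7 at 44.6 CPM, against 56.9 to 60.4 CPM in the others, and high in RT1-S2 at 2.39 CPM, against 0.460 to 0.940 CPM in the others.

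In dust rats of the 30 mg/m3 study, rat 59 (day 1) was low in RT1-Ba at 81.2 CPM, against 121 to 143 CPM in the others, and high in RT1-Db1 at 74.6 CPM, against 39.4 to 51.8 CPM in the others. Rat 58 (day 1) was low in RT1-Db2 at 0.556 CPM, against 1.08 to 1.35 CPM in the others. Rat 61 (day 1) was high in RT1-M2 at 4.30 CPM, against 2.38 to 2.92 CPM in the others. Rat 76 (day 7) was high in RT1-N2 at 49 CPM, against 7.59 to 18.9 CPM in the others, and rat 79 (day 7) in RT1-N3 at 47.6 CPM, against 35.1 to 39.5 CPM in the others. Rat 96 (day 27) was low in RT1-A1 at 48.3 CPM, against 74.2 to 83.3 CPM in the others.

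In the 10 mg/m3 study, dust rat 16 (day 27) was high in RT1-CE5 at 116 CPM, against 13.9 to 24.4 CPM in the others, and in RT1-CE6 at 2.53 CPM, against 0 to 0.229 CPM in the others. Dust rat 27 (day 1), the shallowest library, was low in RT1-Da at 350.2 CPM, against 457 to 489 CPM in the others, and dust rat 44 (day 7) was high in RT1-T24-1 at 4.97 CPM, against 0.287 to 1.46 CPM in the others. Air rat 17 (day 1) was low in RT1-Da at 277 CPM, against 410.3 to 458 CPM in the others, and in RT1-M3-1 at 28.9 CPM, against 37 to 40.1 CPM in the others. Air rat 1 (day 27) was high in RT1-CE3 at 5.79 CPM, against 0.577 to 1.35 CPM in the others, air rat 37 (day 7) in RT1-CE6 at 3.30 CPM, against 0.108 to 0.561 CPM in the others, and air rat 3 (day 27) in RT1-DMb at 7.43 CPM, against 3.47 to 4.04 CPM in the others. The cause of these values was not tested.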

How the results depend on the processing

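No log2 change of a called gene, or of the 3 genes with the smallest p where none was called, changed direction under any alternative. For on-off genes, spread and correlations only the counts were compared, not directions. In dust against air, the counts of RT1 genes called stayed at 0 with DESeq2, with limma voom, with RLE size factors, with no filter on low counts, with only the 2 groups compared in the fit, with the cardiac muscle markers as a covariate, without air rats 51 and 53 where they entered, and with each rat left out in turn (lowest 0, highest 0). The dependence of the dust effect on day and the difference between doses gave 0 RT1 genes too with DESeq2, limma voom, RLE size factors, no filter and each rat left out. At day 27 against day 1, leaving out 1 rat gave 4 to 7 RT1 genes in dust rats and 2 to 6 in air rats of the 30 mg/m3 study, and 0 to 0 in dust rats and 0 to 1 in air rats of the 10 mg/m3 study; without air rats 51 and 53 the count in air rats of the 30 mg/m3 study was 3. On-off RT1 genes numbered 2 (5.56%, against 0.562% of all genes) with off set at 0 counts, 8 (22.2%, against 4.56%) with off at 10 or fewer counts and 2 (5.56%, against 0.603%) with at least 6 libraries off and 6 on. By the SD of log2 CPM, 11 RT1 genes of the 30 mg/m3 study lay above the 90th percentile of all genes. Of the 44 pairs with Cd74, Ciita, B2m or Nlrc5, 2 passed within the 10 mg/m3 study and 2 within the 30 mg/m3 study; of the 231 pairs among RT1 genes 9 and 17 passed, with fewer rats in each. The pairs among RT1 genes, and the repeats without air rats 51 and 53 and dust rat 27 for on-off genes, spread and pairs, were chosen after seeing the data. The causes of these shifts were not tested. Among single genes, 47 repeats with 1 rat left out and 6 other repeats lost a call, and 1 gained a call. The status stayed the same in 1504 and 247 repeats, which include genes that were not called in the first place. DESeq2 gave no adjusted p in 2. No paired analysis was possible because the rat numbers in the titles are all different, so the groups compared share none.

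Depth limits the on-off genes and the 8 class I genes near the detection limit most, since 3 counts are worth 0.248 to 0.909 CPM. With 4 to 6 rats a group the standard errors beside each log2 change set the smallest change that was detectable. Levels rest on counting against 1 reference genome, and the annotation, the strand setting and the handling of reads that match several RT1 genes are not stated in the labels or notes.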
